A study of Mus musculus with 2 samples.

Results

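Dendritic cells (DC) from the spleens of WT mice and of H2-Aa cit/cit mice (cit for short) were compared for the genes of the proteasome, the cytosolic and nuclear protease that degrades ubiquitin-tagged proteins. The genes were all those whose symbol begins with Psma, Psmb, Psmc, Psmd, Psme or Psmf, leaving out 2 symbols of the immunoproteasome and pseudogene symbols. This gave 44 of the 32285 genes in the files. The WT library (H2-Aa +/+) and the cit library (H2-Aa cit/cit) each pooled cells of 3 naive female mice of 4 months. The cit allele is a chemically induced germline mutation of H2-Aa, the gene of an MHC-II α chain, that was predicted to disturb splicing. The study found neither spliced H2-Aa mRNA nor MHC-II protein in splenocytes of cit mice and calls the allele effectively null. Every cell of these mice carries the allele, and the study describes fewer CD4 T cells and B cells in them. The DC were enriched with CD11c beads, sorted as live CD45.2+ CD11c+ cells and profiled with a droplet 3′ kit that counts unique molecular identifiers (UMIs), 1 for each captured transcript. With 1 library per genotype there was no replicate error and no test. All intervals are 95% intervals that cover counting error only, and mouse, library and genotype cannot be told apart.

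The WT library held 7814 cells and 51020804 UMIs, and the cit library 11525 cells and 72652201 UMIs. Levels are given as counts per 1000000 UMIs (CPM), on which scale H2-Aa itself was at 5410 in the WT library and at 66.2 in the cit library. Cell classes were set by how many genes of a marker list had a UMI. Resting cDC2-like cells numbered 1959 in WT and 5059 in cit. The cDC1-like class held 508 and 604 cells, mature Ccr7+ cells 1560 and 1001, cycling cells 169 and 376, and cycling cells with cDC1 markers 51 and 56. A further 2303 WT and 2772 cit cells passed none of the other gates, whatever their count of cDC2 markers, and had under 8% of their UMIs on ribosomal protein genes. Their leading genes were those of haemoglobin, unnamed transcripts and Lrrn3, so they were given no cell type and are called ribosome-poor. They also held cDC2 markers, at 1391 and 1424 CPM summed (2631 and 2330 in resting cDC2-like cells). The markers of mature cells summed to more, 2768 and 1960 CPM (1276 and 921 in resting cDC2-like cells). The pDC markers summed to 1220 and 1102 CPM (720 and 608 in resting cDC2-like cells). Wdfy4 was at 2331 and 2203 CPM (1089 and 981 in resting cDC2-like and 2699 and 1841 in cDC1-like cells). Small classes of pDC-like, monocyte-like and macrophage-like cells held between 62 and 133 cells per library. The libraries shared 31 cell barcodes. The median ribosomal share over all cells was 10.5% in WT and 15.5% in cit.

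The proteasome is built from a 20S core, a barrel of α and β rings in which the β subunits Psmb5, Psmb6 and Psmb7 cut proteins, and from caps that open it. The 19S cap recognizes and unfolds ubiquitin-tagged proteins with its ATPases (the Psmc genes) and its other subunits (most Psmd genes). Interferon-γ induces alternative catalytic subunits, among them Psmb10, which takes the place of Psmb7, and the PA28 cap made of Psme1 and Psme2. In DC these inducible parts are known for shaping the peptides loaded on MHC-I, and maturing DC are known to switch towards them.

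Promoter letters were searched for elements known from interferon-driven and proteasome genes. Of the 44 members, 37 had a RefSeq promoter (GRCm38.p6, 250 bases before to 50 after the start), with 40 promoters between them, beside 32851 promoters of all genes. The 5 motifs searched, on both strands, were 2 runs of GAAA with any 2 bases between them (the ISRE core of interferon-response elements), TTCNNNGAA (the GAS element), TGACNNNGC (the antioxidant-type element that NRF1 and NRF2 bind), CCAAT and CCGGAAG (an ETS core). No 2 different motifs overlapped in a member's promoter. The ISRE core was present in 10.0% of member promoters and 3.44% of all promoters, the 4 genes being Psme1, Psmb3, Psmd4 and Psmd9, so 1 of the 4 is an inducible member. The GAS element was present in 2.50% and 8.30%, the antioxidant-type element in 15.0% and 12.4%, CCAAT in 35.0% and 37.4%, and the ETS core in 35.0% and 8.86%. A match is a run of letters and not a known site. The sequences below are those of Psme1, the most abundant member, of Psmb10, whose level and share differed between the libraries, of Psmb3, the beta subunit that differed most in cDC1-like cells, and of Psmd11, one of 13 members with the ETS core. Capitals mark the ISRE core in Psme1 and Psmb3 and the ETS core in Psmd11. Psmb10 held none of the 5 motifs in this window. Its gene lies on the minus strand of chromosome 8 from 105935735 to 105938444 (GRCm38).
Psme1, chr14:55578244-55578543, + strand: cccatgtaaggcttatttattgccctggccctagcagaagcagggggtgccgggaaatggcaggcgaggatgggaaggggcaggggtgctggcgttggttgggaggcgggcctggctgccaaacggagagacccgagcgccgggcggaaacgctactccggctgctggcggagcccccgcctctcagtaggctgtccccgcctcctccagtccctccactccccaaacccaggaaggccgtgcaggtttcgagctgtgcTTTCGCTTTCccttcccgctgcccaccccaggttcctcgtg
Psmb10, chr8:105938343-105938642, - strand: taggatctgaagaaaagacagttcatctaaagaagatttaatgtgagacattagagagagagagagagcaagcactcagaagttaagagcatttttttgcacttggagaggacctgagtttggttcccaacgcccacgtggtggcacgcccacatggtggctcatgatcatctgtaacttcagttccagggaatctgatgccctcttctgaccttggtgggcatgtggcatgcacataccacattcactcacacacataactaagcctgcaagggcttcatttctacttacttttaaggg
Psmb3, chr11:97703184-97703483, + strand: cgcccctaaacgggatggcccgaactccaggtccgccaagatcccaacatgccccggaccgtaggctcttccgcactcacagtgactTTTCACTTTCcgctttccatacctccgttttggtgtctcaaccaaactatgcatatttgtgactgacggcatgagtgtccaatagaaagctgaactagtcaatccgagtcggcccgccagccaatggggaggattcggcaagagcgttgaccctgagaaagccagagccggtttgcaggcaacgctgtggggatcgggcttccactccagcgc
Psmd11, chr11:80428365-80428664, + strand: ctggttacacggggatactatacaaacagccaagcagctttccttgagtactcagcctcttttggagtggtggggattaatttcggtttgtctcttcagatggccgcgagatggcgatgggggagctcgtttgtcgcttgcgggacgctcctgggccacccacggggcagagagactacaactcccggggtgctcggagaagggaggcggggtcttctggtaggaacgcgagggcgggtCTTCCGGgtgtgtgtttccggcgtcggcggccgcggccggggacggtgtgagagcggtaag
In Psme1 the ISRE core starts 10 bases into the transcript, and in Psmb3 163 bases before the start. The ETS core of Psmd11 lies 11 bases before the start.

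In resting cDC2-like cells the proteasome genes together made up 0.410% of UMIs in WT and 0.438% in cit cells. The 14 constitutive core genes (Psma1 to Psma7 and Psmb1 to Psmb7) summed to 2006 CPM in WT and 2147 CPM in cit, a log2 ratio of 0.10 (interval 0.08 to 0.12). The 17 genes of the 19S cap summed to 1101 and 1168 CPM, a log2 ratio of 0.09 (0.06 to 0.11), and Psmb10, Psme1 and Psme2 to 710 and 781 CPM, a log2 ratio of 0.14 (0.11 to 0.17). Of the 43 members with at least 50 UMIs over both libraries, 32 were above WT by any amount, as were 45.1% of all 12502 genes with that many UMIs. None of the 43 was at least 25% higher, against 8.69% of all genes, and 1, Psma8, was at least 20% lower, against 12.9%. Psma8, a testis-type α subunit, rested on 88 and 154 UMIs, with a log2 ratio of -0.36 (-0.75 to 0.03). The median log2 ratio was 0.08 over the members and -0.02 over all genes. Psmb11, the subunit of the thymic proteasome, had 0 UMIs in WT, with an upper interval end of 0.222 CPM, and 3 UMIs (0.080 CPM) in cit.

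**Figure D1:**
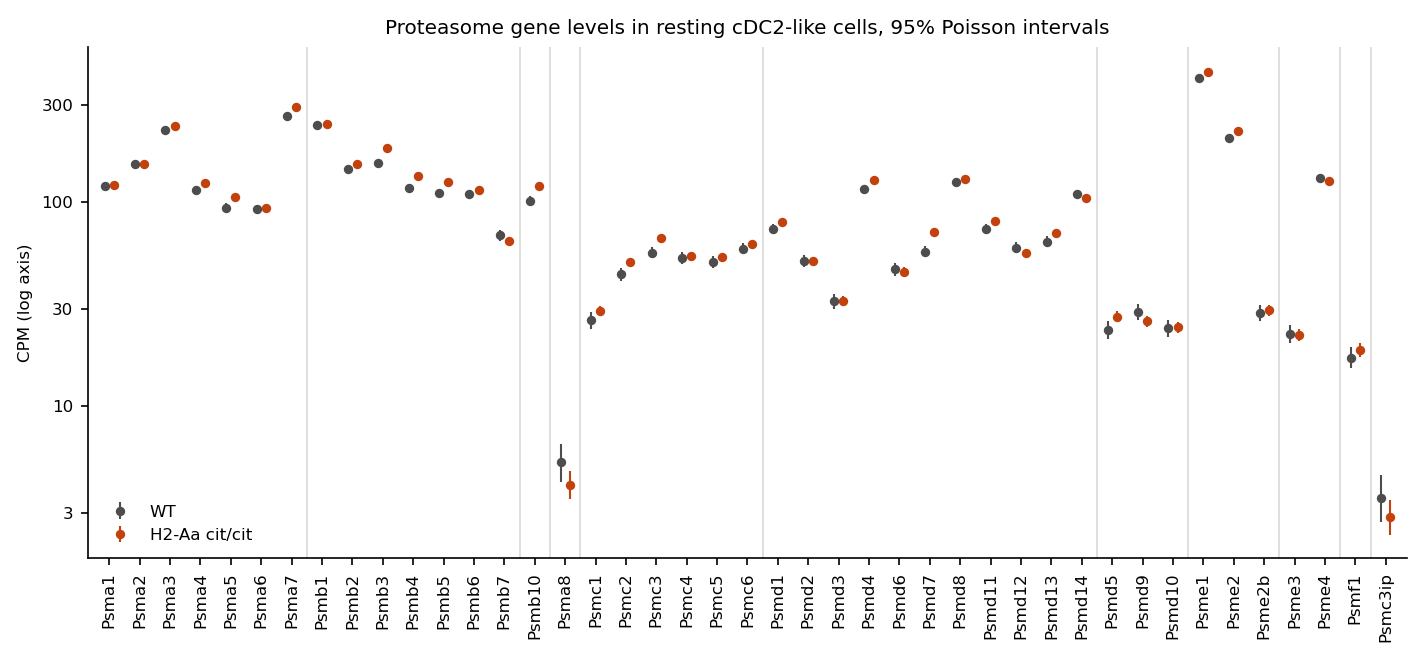
Each point is the level of 1 proteasome gene in resting cDC2-like cells in CPM on a log axis, WT in grey and cit in orange, with bars for 95% Poisson intervals and grey lines between roles. Psme1 is highest at 404 and 436 CPM, the core genes lie from 64.2 to 294 CPM, and Psma8 and Psmc3ip are the lowest drawn, Psmb11 being left out.

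These ratios moved with the ribosomal share of the cells. The median share was 16.6% in WT and 18.9% in cit resting cDC2-like cells. With both libraries weighted to the same ribosomal shares, an alternative chosen after seeing the data, the log2 ratio was 0.01 for the core, 0.05 for the 19S cap and 0.05 for Psmb10, Psme1 and Psme2. Within bins of ribosomal share the core was at 1494 and 1414 CPM between 8% and 12%, at 1819 and 1852 CPM between 12% and 16%, and at 2403 and 2416 CPM above 20%. The core level thus increased with ribosomal share in both libraries. Over the 6 bins, of which those under 8% held the ribosome-poor cells, the core log2 ratio of the libraries ran from -0.08 to 0.09. Over the same bins it ran from 0.01 to 0.18 for the 19S cap and from -0.14 to 0.20 for Psmb10, Psme1 and Psme2. Within resting cDC2-like cells, Ccr2+ cells had 2258 and 2365 CPM of core and Ffar2+ cells 1871 and 1980 CPM. The 19S log2 ratio was 0.14 (0.08 to 0.19) in the Ccr2+ and 0.02 (-0.03 to 0.06) in the Ffar2+ cells.

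**Figure D2:**
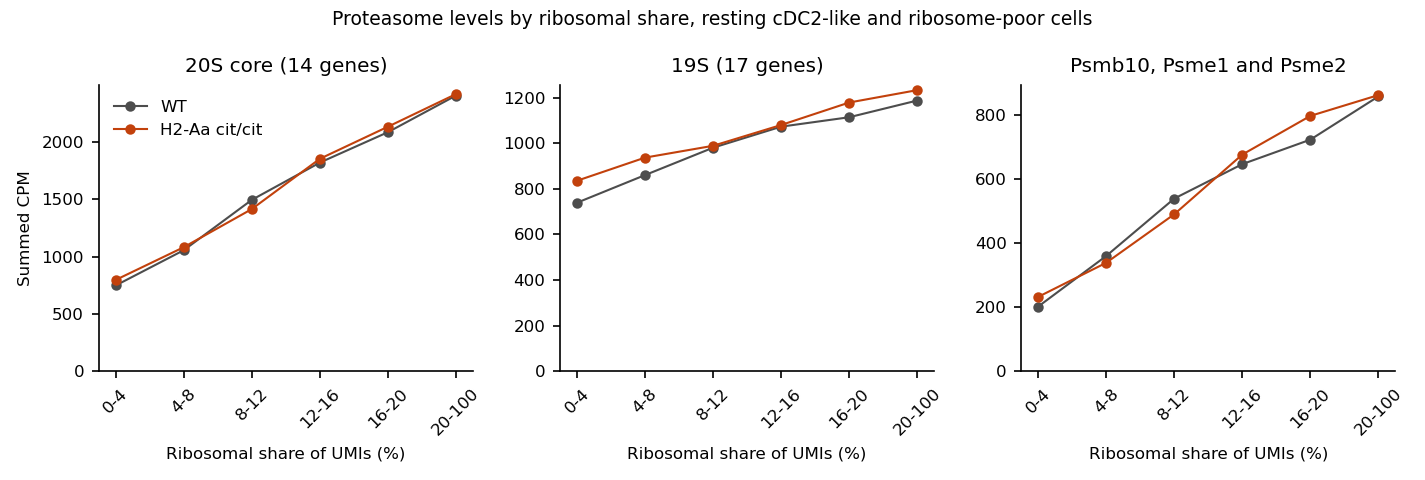
Summed CPM of the core, the 19S cap and the 3 inducible genes by the share of a cell's UMIs on ribosomal protein genes (in percent), over resting cDC2-like and ribosome-poor cells, WT in grey and cit in orange. Each point is 1 library's sum over the cells of a bin. The core goes from 749 and 797 CPM in the lowest bin to 2403 and 2416 CPM in the highest, with both lines close together.

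Among the α ring genes, Psma7 was the most abundant, at 263 CPM in WT and 294 CPM in cit resting cDC2-like cells. Each captured transcript gives 1 UMI whatever its length, so levels were not divided by gene length, and an order between genes holds for captured transcripts only. The other α genes lay between 92.5 and 224 CPM in WT, and Psma5 had the largest ratio (93.9 and 105.7 CPM, log2 0.17, 0.09 to 0.26). In the β ring, Psmb1 was highest (238 and 242 CPM). Psmb3, a structural β subunit, was at 155 CPM in WT, against 185 CPM in cit, a log2 ratio of 0.25 (0.18 to 0.31). The catalytic subunits differed among themselves. Psmb5, the chymotrypsin-like subunit, was at 110.3 and 125 CPM (log2 0.18, 0.10 to 0.26), Psmb6, the caspase-like subunit, at 110.0 and 115 CPM (0.07, -0.01 to 0.15), and Psmb7, the trypsin-like subunit, at 68.7 and 64.2 CPM (-0.10, -0.20 to 0.01). Psmb7 was the lowest of the 14 core genes in both libraries.

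The 19S ATPases were at 26.4 to 59.1 CPM in WT. All 6 were above WT by any amount in cit, beside 45.1% of all genes, and 2 had an interval above 0. Psmc3 had the largest ratio (56.6 and 66.4 CPM, log2 0.23, 0.12 to 0.34). Of the 11 other cap subunits, 7 were above WT, 5 of them with an interval above 0. Psmd7, which pairs with the deubiquitinase Psmd14, had the highest ratio of all members, with 57.2 CPM in WT and 71.0 CPM in cit (log2 0.31, 0.21 to 0.42). Psmd14 itself was at 109 and 104 CPM (-0.07, -0.15 to 0.01). The most abundant of the cap subunits were Psmd8 (126 and 129 CPM) and the ubiquitin receptor Psmd4 (117 and 129 CPM). The chaperones of 19S assembly were at 23.7 and 27.5 CPM for Psmd5, 28.9 and 26.0 CPM for Psmd9, and 24.1 and 24.3 CPM for Psmd10. Psmd9 had the third lowest ratio (log2 -0.15, -0.31 to 0.01), after Psma8 and Psmc3ip. Psmc3ip, a meiotic recombination gene that only shares the prefix, was at 3.55 and 2.86 CPM.

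Of the inducible genes, Psmb10 was at 102 CPM in WT, against 120.4 CPM in cit, a log2 ratio of 0.24 (0.16 to 0.32). Psme1 was at 404 and 436 CPM (0.11, 0.07 to 0.15) and Psme2 at 205 and 224 CPM (0.13, 0.07 to 0.19). The other activators were at 22.5 and 22.4 CPM for Psme3, the nuclear PA28 γ subunit, and at 131 and 127 CPM for Psme4, which encodes the PA200 cap. The inhibitor Psmf1 was at 17.3 and 18.9 CPM. Stretches of some members could not be told from other genes. Of the 90-base windows in the last 500 transcript bases, some also occurred in another annotated transcript. These were 39.4% in Psme2 and its copy Psme2b, 52.6% in Psmd1, 36.7% in Psmb5, 30.2% in Psma5 and 25.8% in Psmb3. The levels of these genes are thus uncertain. The same held for 12.2% of the windows of Psmc1 and for 5.11% in Psme1 and in Psmd2. The study's run configuration gives reads longer than 90 bases, so these shares can be too high for its reads. For comparison, of 20 interferon-stimulated genes 13 were at least 25% higher in the same cells, beside 8.69% of all genes, with a median log2 ratio of 0.63. They included Isg15 (80.7 and 127 CPM) and Oasl2 (41.5 and 82.0 CPM). This list, like that of the pathway genes, was chosen with earlier results of these data known. Its count is a description only. Of 23 further genes of proteasome assembly and ubiquitin handling, 1 was at least 25% higher, a smaller share than the 8.69% of all genes. This was the unfoldase Vcp (116 and 154 CPM), and the core maturation factor Pomp was at 265 and 290.3 CPM.

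The share of Psmb10 among the UMIs of Psmb10 and its counterpart Psmb7 does not depend on library scaling. It was 59.7% (57.9 to 61.5) in WT and 65.2% (64.1 to 66.3) in cit resting cDC2-like cells, a difference of 5.52 percentage points (3.38 to 7.67). It was 4.17 points with equal ribosomal shares and 7.89 points with each cell thinned to 1500 UMIs. In cDC1-like cells the share was 47.1% (44.3 to 49.9) and 53.3% (51.1 to 55.5), in mature cells 50.8% (48.8 to 52.8) and 57.8% (54.8 to 60.8), and in cycling cells 45.7% (40.4 to 51.0) and 57.6% (53.9 to 61.2). In cycling cells with cDC1 markers it was 37.2% (31.0 to 43.8) and 57.9% (51.8 to 63.8), and in ribosome-poor cells 32.3% (28.4 to 36.4) and 40.9% (37.0 to 44.8). The intervals of the 2 libraries did not overlap in these 6 classes. In pDC-like (66.3% and 71.1%), monocyte-like (64.9% and 70.5%) and macrophage-like cells (69.8% and 71.4%) the share was also higher in cit, with overlapping intervals. So the share was higher in the cit library in all 9 classes, which are not independent since all come from the same pair of libraries. Within resting cDC2-like cells it was 58.0% (55.0 to 60.8) and 62.2% (60.1 to 64.2) in Ffar2+ cells, with intervals that overlapped narrowly. In Ccr2+ cells it was nearly level at 66.2% (61.9 to 70.3) and 67.2% (64.6 to 69.7). Of the 1959 WT and 5059 cit resting cDC2-like cells, 782 and 1568 were Ffar2+ and 266 and 763 Ccr2+. The others carried neither label, and their share was not computed apart. The difference in mature cells was 7.08 points (3.47 to 10.7) and 1.77 points with cells thinned to 1500 UMIs. The thinned differences have no interval and rest on few UMIs. After thinning, Psmb10 was seen in 226 of 1550 WT and 143 of 993 cit mature cells. Psmb7 was seen in 168 and 109 of them.

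**Figure D3:**
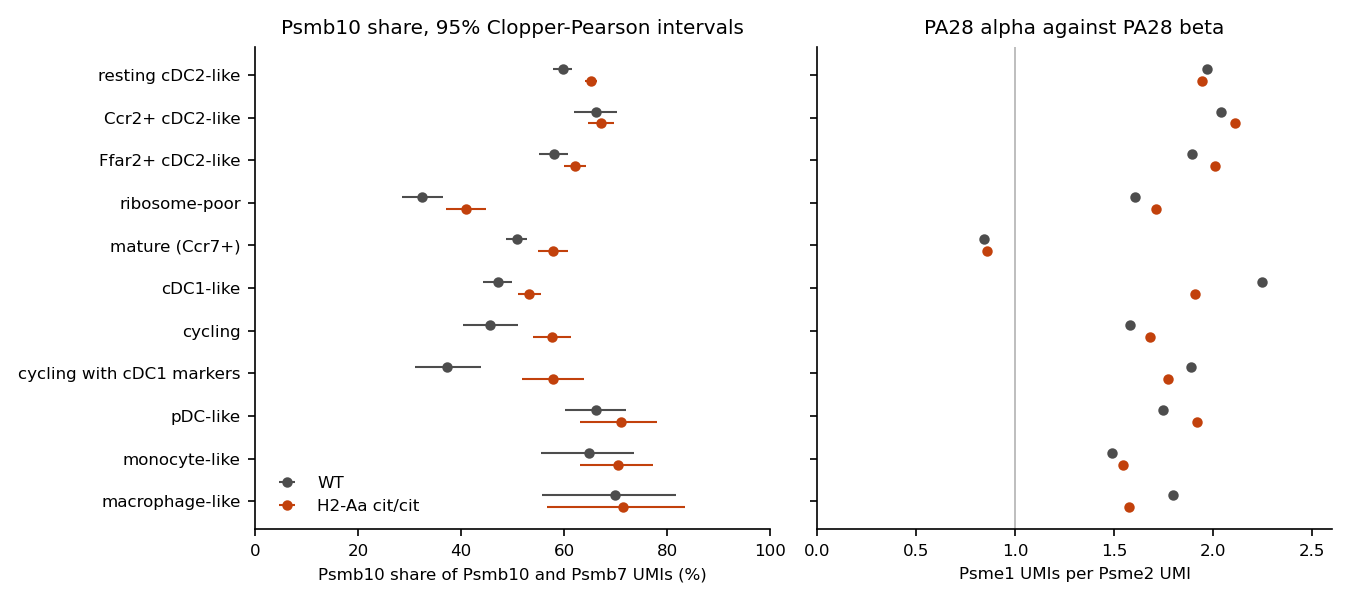
Left, the Psmb10 share of Psmb10 and Psmb7 UMIs in percent by cell class, with 95% Clopper-Pearson intervals. Right, Psme1 UMIs per Psme2 UMI, with a line at 1. WT is grey and cit orange. The Psmb10 share is higher in cit in every class, and only mature cells, at 0.843 and 0.858, lie left of the line.

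Psmb10 and Psmb7 moved apart in different ways by class. Psmb10 was higher in cit in cDC1-like cells (97.8 and 120.3 CPM, log2 0.30, 0.15 to 0.45), in cycling cells (87.5 and 108 CPM, 0.31, 0.04 to 0.58) and in monocyte-like cells (90.8 and 135 CPM, 0.57, 0.14 to 1.01). In mature cells Psmb10 was nearly level (99.4 and 101.4 CPM, 0.03, -0.11 to 0.17) while Psmb7 was lower in cit (96.4 and 73.9 CPM, -0.38, -0.54 to -0.23). Psmb7 was also lower in cycling cells (104 and 79.8 CPM, -0.38, -0.65 to -0.12) and in cycling cells with cDC1 markers (157 and 104 CPM, -0.60, -0.97 to -0.24). In cDC1-like cells Psmb7 was at 110.0 and 106 CPM.

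In total, cDC1-like cells had more proteasome transcripts than resting cDC2-like cells, and the total differed more between the libraries there. The 19S cap was nearly level between these classes in WT (log2 0.051, 0.011 to 0.091) and higher in cDC1-like cells in cit (0.306, 0.278 to 0.335). The median ribosomal share was 18.6% and 20.3% in cDC1-like cells, against 16.6% and 18.9%. Its part in this contrast was not tested. Against resting cDC2-like cells, 10 of 43 members were at least 25% higher in both libraries and 2 at least 20% lower, beside 12.9% and 33.6% of all genes. The 10 included Psme1 (404 CPM in cDC2-like and 773 CPM in cDC1-like cells of WT), Psme2 (205 and 344 CPM), and the core genes Psmb5 (110.3 and 171 CPM), Psmb7 (68.7 and 110.0 CPM) and Psma5 (93.9 and 142 CPM). Of the core genes 7 of 14 were among them, and of the 19S genes 1 of 17, the ATPase Psmc3. Lower in both libraries were Psmd9 and Psme2b.

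Between the libraries, the cDC1-like core summed to 2524 CPM in WT and 3162 CPM in cit, a log2 ratio of 0.33 (0.30 to 0.35), and the 19S cap to 1141 and 1445 CPM, a log2 ratio of 0.34 (0.30 to 0.38). Of 42 members with enough UMIs, 20 were at least 25% higher in cit and 1, Psma8, lower, beside 21.4% and 22.1% of 10038 genes. The 20 held 9 of the 14 core genes and 11 of the 17 cap genes. The highest ratios were those of Psmd7 (62.6 and 112 CPM, log2 0.84, 0.67 to 1.01), Psmb3 (174 and 284 CPM, 0.71, 0.60 to 0.81) and the ATPase Psmc2 (42.7 and 62.9 CPM, 0.56, 0.34 to 0.78). Psmb5 was at 171 and 219 CPM (0.36, 0.25 to 0.47), Psmb6 at 130.4 and 185 CPM (0.50, 0.38 to 0.63), and Psmb7 was the only core gene below WT (-0.06, -0.21 to 0.09). The 3 lowest ratios were those of Psma8 (5.02 and 3.36 CPM), Psmd10 (27.6 and 23.6 CPM) and Psmd14 (121 and 110.0 CPM, -0.13, -0.27 to 0.01). The inducible genes together were level (1215 and 1214 CPM, log2 0.00, -0.04 to 0.04), with Psme1 at 773 and 718 CPM and Psme2 at 344 and 376 CPM.

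**Figure D4:**
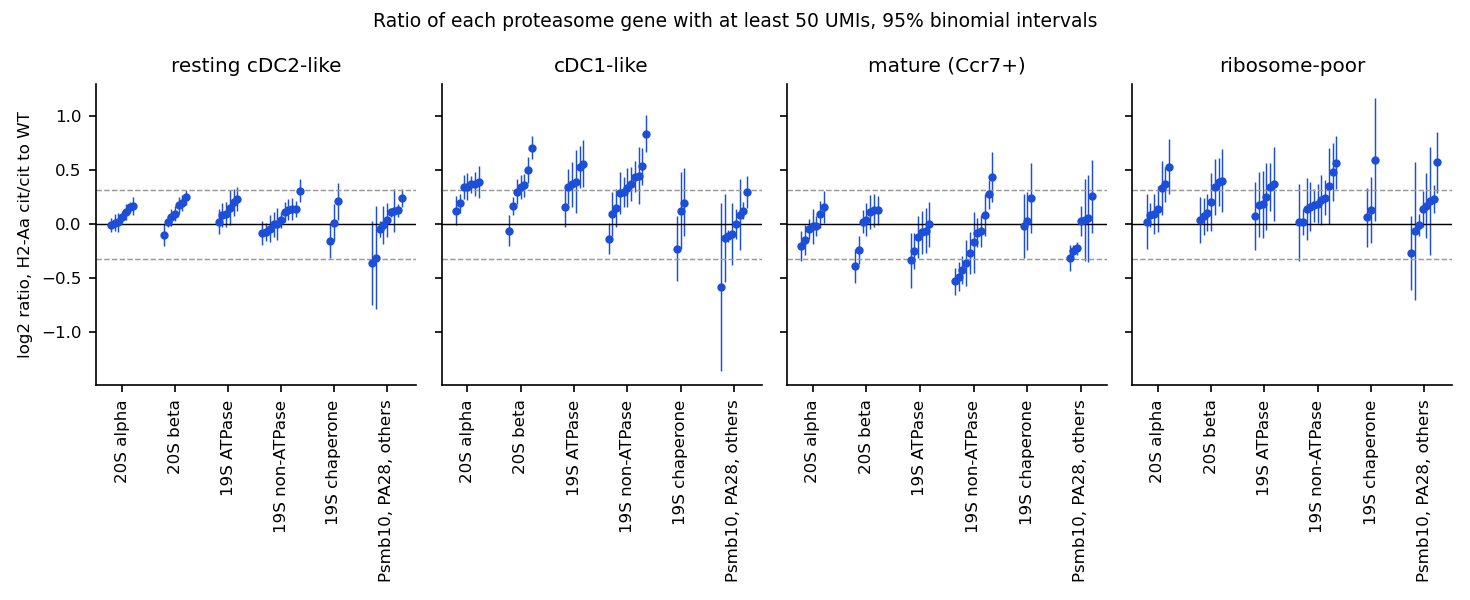
Log2 ratio of cit to WT for each proteasome gene with at least 50 UMIs, by role, in 4 cell classes. Bars are 95% binomial intervals and dashed lines mark 25% higher and 20% lower. In cDC1-like cells 20 genes lie above the upper line, in resting cDC2-like cells none does, in mature cells 6 genes lie below the lower line, and in ribosome-poor cells 13 lie above the upper line.

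Of 23 further pathway genes, 8 were at least 25% higher in cit cDC1-like cells and 1 lower, beside the 21.4% and 22.1% of all genes. Nfe2l1, which encodes NRF1, the transcription factor of proteasome genes, was at 27.3 CPM in WT, against 78.5 CPM in cit (log2 1.52). Vcp was at 154 and 287 CPM (0.89), the core assembly chaperone Psmg1 at 11.1 and 16.9 CPM (0.61) and the 19S ubiquitin receptor Adrm1 at 27.0 and 40.0 CPM (0.57). Pomp was at 539 and 500.3 CPM (-0.11). Depth and ribosomal share also differed between the libraries: the median cell had 10823 UMIs in WT and 14782 in cit, and the median ribosomal share was 18.6% and 20.3%. With cells thinned to 1500 UMIs the core ratio was 0.30 and the 19S ratio 0.46, and 20 members were higher. With equal ribosomal shares, over 454 and 587 cells, they were 0.15 and 0.25, and 8 members were higher. The ratio of the inducible genes was then -0.21, and -0.10 with thinned cells. The share of all genes was not computed in these 2 settings, so the counts of 20 and 8 members have none beside them. The 12 cDC1 markers summed to 4522 and 3260 CPM, and 6 plasma cell genes, of which 2 were at 0 in each library, to 6.03 and 138 CPM. The cDC2 markers summed to 337 and 477 CPM, the mature markers to 428 and 226 CPM, the pDC markers, of which 1 was at 0 in each library, to 327 and 169 CPM, and 6 erythroid genes, of which 1 was at 0 in each library, to 56.6 and 3.47 CPM. Their part in the ratios was not tested.

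Taken as whole classes, mature Ccr7+ cells had less core and more PA28 than resting cDC2-like cells. The core was at 1741 CPM in WT, against 1709 CPM in cit mature cells, against 2006 and 2147 CPM in resting cDC2-like cells. These classes differed in ribosomal share, with WT medians of 8.1% in mature and 16.6% in resting cDC2-like cells (10.2% and 18.9% in cit). Resting cDC2-like cells with a share between 8% and 12% had less core than the mature class, with 1494 CPM for WT and 1414 CPM for cit. The part of ribosomal share in the contrast of mature with resting cells was not tested. Of 43 members, 12 were at least 20% lower in both libraries and 2 higher, smaller shares than the 36.5% and 21.8% of all genes. The 12 included 6 core genes, among them Psmb3 (155 CPM in resting and 103 CPM in mature WT cells), Psmb4 (117 and 85.5 CPM) and Psmb5 (110.3 and 78.9 CPM). The 2 higher genes were Psme2 (205 and 662 CPM in WT, 224 and 558 CPM in cit) and Psmd11, a scaffold subunit of the cap (73.6 and 139 CPM in WT, 80.7 and 104 CPM in cit). PA28 UMIs per core UMI were 0.701 in WT and 0.606 in cit mature cells, against 0.303 and 0.308 in resting cDC2-like and 0.443 and 0.346 in cDC1-like cells. Psme1 UMIs per Psme2 UMI were 0.843 and 0.858, while the other 8 classes lay between 1.49 and 2.25. Psmb10 was not higher in mature cells, at 99.4 and 101.4 CPM against 102 and 120.4 CPM in resting cDC2-like cells. Its share with Psmb7 was lower there, at 50.8% and 57.8% against 59.7% and 65.2%.

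Between the libraries, the 19S cap was lower in cit mature cells (1281 and 1128 CPM, log2 -0.18, -0.23 to -0.14), as were the inducible genes (1320 and 1138 CPM, -0.21, -0.25 to -0.17), while the core differed by -0.03 (-0.06 to 0.01). Of 41 members 6 were at least 20% lower and 1 higher, beside 13.6% and 27.3% of 10930 genes, whose median log2 ratio was 0.10 here. The 6 were Psmd14 (163 and 113 CPM, -0.53, -0.66 to -0.40), Psmd1 (139.8 and 99.9 CPM), Psmd11 (139 and 104 CPM, -0.42, -0.55 to -0.29), Psmb7, Psmd2 and Psmc1, and the share of members that were lower was near that of all genes. The higher member was Psmd6 (30.7 and 41.6 CPM, 0.44, 0.20 to 0.67), followed by Psmd8 (97.8 and 119 CPM, 0.28) and Psmf1 (15.7 and 18.8 CPM, 0.26). Psme2 was at 662 and 558 CPM (-0.25, -0.30 to -0.19) and Psme1 at 558 and 479 CPM (-0.22, -0.29 to -0.16). Of these cells 49.4% in WT and 32.8% in cit had under 8% ribosomal UMIs. With equal ribosomal shares the 19S ratio was -0.20, the inducible ratio -0.34 and the core ratio -0.15. With thinned cells the 19S ratio was -0.141, the inducible ratio -0.145 and the core ratio 0.02. The median mature cell had 7018 UMIs in WT and 5340 in cit. The 12 mature markers summed to 8973 and 7578 CPM, and Wdfy4 was at 164 and 282 CPM. Of all cells past the mature gate, 221 of 1649 in WT and 215 of 1057 in cit had just the number of markers required. The part of these differences in the ratios was not tested. A count of 77 WT and 5 cit mature cells had 3 or more cDC1 markers, and without them the 19S ratio was -0.19 and the inducible ratio -0.16. Vcp was at 269 and 199 CPM in the same cells.

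**Figure D5:**
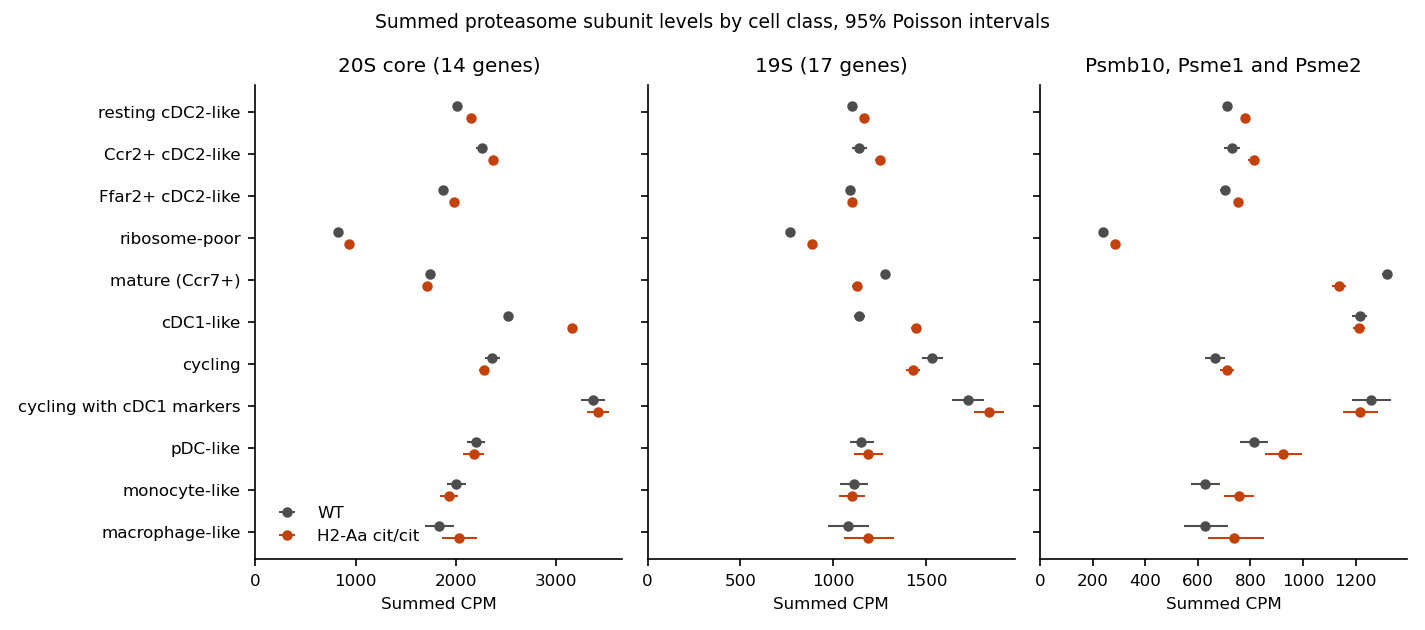
Summed CPM of the 14 core genes, the 17 genes of the 19S cap and the 3 inducible genes by cell class, WT in grey and cit in orange, with 95% Poisson intervals. Cycling cells with cDC1 markers have the most core (3367 and 3413 CPM), ribosome-poor cells the least (821 and 935 CPM), and mature, cDC1-like and cycling cells with cDC1 markers the most inducible transcripts.

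Cycling cells had more core and more cap transcripts than resting cDC2-like cells. In WT the core was at 2364 CPM in cycling cells, a log2 ratio of 0.24 (0.19 to 0.28) to resting cDC2-like cells, and the 19S cap at 1532 CPM, a log2 ratio of 0.48 (0.42 to 0.53). In cit the core was at 2278 CPM (0.085, 0.05 to 0.12) and the cap at 1431 CPM (0.29, 0.25 to 0.33). The WT core ratio was 0.42 with equal ribosomal shares and 0.34 against Ffar2+ cells alone. Neither alternative is given for cit, and these were not run for the cap. In cit the cycling core was below that of Ccr2+ cells (2365 CPM) and above that of Ffar2+ cells (1980 CPM). In WT it was above both (2258 and 1871 CPM). Of 43 members 8 were at least 25% higher in both libraries, a share near the 17.8% of all genes. They were the ATPases Psmc1 (26.4 CPM in resting and 48.9 CPM in cycling WT cells), Psmc3 (56.6 and 117 CPM) and Psmc4 (53.3 and 85.9 CPM), the cap genes Psmd2, Psmd13 and Psmd14, the core gene Psmb6 and Psmc3ip (3.55 and 25.8 CPM). The inducible genes were below resting cDC2-like cells (log2 -0.10, -0.18 to -0.01, in WT and -0.13, -0.19 to -0.08, in cit). Between the libraries, 1 of 42 members was higher and 6 lower in cit cycling cells, beside 12.5% and 15.5% of 8749 genes. The highest ratios were those of Psmd7 (63.4 and 81.4 CPM, log2 0.36, 0.05 to 0.68), Psmb10 and Psmb4 (130.5 and 154 CPM, 0.24, 0.02 to 0.46). The lowest were those of the scaffold subunit Psmd3 (44.0 and 28.0 CPM, -0.65, -1.08 to -0.22), of Psme3 (36.5 and 25.6 CPM, -0.51, -0.97 to -0.04) and of Psmd12 (82.1 and 61.6 CPM, -0.42, -0.71 to -0.11). The summed core differed by -0.05 (-0.11 to -0.00) and the cap by -0.10 (-0.16 to -0.03). With equal ribosomal shares these ratios were -0.17 and -0.15, and the cap ratio was -0.036 with thinned cells. The 6 plasma cell genes summed to 368 CPM in WT cycling cells, with 1 of them at 0, against 11.1 CPM in cit, with 4 at 0, and 12 neutrophil-lineage markers to 5.91 and 43.4 CPM. Their part in the ratios was not tested. The inducible genes, at 665 and 711 CPM, differed by 0.10 (-0.00 to 0.20), and by -0.05 with equal ribosomal shares.

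Cycling cells with cDC1 markers had the highest total, 0.663% of UMIs in WT and 0.673% in cit. Against resting cDC2-like cells 32 of 43 members were at least 25% higher in both libraries and 2 at least 20% lower, beside 22.8% and 29.7% of all genes, and the 32 held all 14 core genes and 14 of 17 cap genes. Psmb5 was at 267 and 269 CPM, Psmc3 at 132 and 160.2 CPM and Psme1 at 763 and 688 CPM. The lower genes were Psme4 (80.3 and 94.5 CPM) and Psme2b. The core of the 2 libraries differed by 0.02 (-0.05 to 0.09). Between the libraries, the highest ratios were those of Psmd3 (32 and 71 UMIs, log2 0.88), Psmb10 (0.61) and Psmc2 (59 and 103 UMIs, 0.53), and the lowest those of Psmb7 (-0.60), Psme3 (39 and 38 UMIs, -0.31) and Psmd2 (100 and 98 UMIs, -0.30). These values rest on 51 and 56 cells.

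Ribosome-poor cells had the lowest levels. The core was at 821 CPM in WT, against 935 CPM in cit, the cap at 768 and 884 CPM and the inducible genes at 240.0 and 285 CPM. Against resting cDC2-like cells 28 of 43 members were at least 20% lower in both libraries and 2 higher, beside 23.5% and 47% of all genes. The largest differences in the core were those of Psmb6 (110.0 and 24.3 CPM in WT) and Psmb4 (117 and 31.8 CPM). The 2 higher genes were Psme4 (131 and 225 CPM in WT) and Psmd14 (109 and 156 CPM). The difference was smaller for the cap than for the core: cap UMIs per core UMI were 0.934 and 0.946, against 0.549 and 0.544 in resting cDC2-like cells. Between the libraries, 13 of 42 members were at least 25% higher in cit and 0 lower, beside 17.3% and 12.3% of 10913 genes. Psmd10 (46 and 66 UMIs, log2 0.59, 0.03 to 1.17), Psmb10 (25.3 and 37.6 CPM, 0.57, 0.29 to 0.86) and Psmd7 (34.1 and 50.8 CPM, 0.57, 0.33 to 0.81) had the highest ratios, and Psmf1 (23.2 and 19.3 CPM), Psma8 and Psme4 the lowest. The median ribosomal share was 3.17% and 4.26%, the median mitochondrial share 2.19% and 3.05% (1.51% and 1.55% in resting cDC2-like cells), and the median cell had 2799 and 2179 UMIs (8288 and 6984 in resting cDC2-like cells). The part of these values in the low levels was not tested. With equal ribosomal shares the log2 ratio of the core was 0.07 in place of 0.19 and that of the inducible genes 0.06 in place of 0.25, while the cap was at 0.16 in place of 0.20.

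The pDC-like, monocyte-like and macrophage-like cells had core levels between 1834 and 2197 CPM. In pDC-like cells the log2 ratio of cit to WT was highest for Psmd7 (0.39), Psmb3 (0.32) and Psme1 (0.30) and lowest for Psmb7 (-0.43), Psmd11 (-0.38) and Psmd10 (-0.35). In monocyte-like cells it was highest for Psmb10 (0.57), Psmd3 (0.42) and Psme4 (0.37) and lowest for Psmd6 (-0.59), Psmd2 (-0.56) and Psma1 (-0.34). In macrophage-like cells it was highest for Psma7 (0.74), Psme4 (0.53) and Psmb3 (0.35) and lowest for Psma2 (-0.33), Psmd14 (-0.24) and Psmd8 (-0.18). Of these 18 ratios, those of Psmb3 and Psme1 in pDC-like cells, Psmb10 and Psmd2 in monocyte-like cells and Psma7 in macrophage-like cells had an interval without 0. The 18 were picked as the most extreme ratios of each class, so this is not a share of all members. With many members compared, counting error alone can give some intervals without 0. In pDC-like cells Psmb10 was at 156 CPM in WT, against 144 CPM in cit, the highest of the 9 classes in both libraries. In cit its interval, 118 to 174 CPM, held the levels of 5 other classes, resting cDC2-like and cDC1-like cells among them. In WT its lower end, 133 CPM, was above the levels of all 8 other classes, whose own intervals are left aside here. The level of macrophage-like cells among them, 107 CPM, rests on 37 UMIs.

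Over the 18 sums of 9 classes and 2 libraries, the genes most like the summed core were sought among 1623 genes of at least 50 CPM in every sum. Leaving the core genes out, the highest Pearson correlations of log2 CPM were those of Cox7c (0.98), Hsp90ab1 (0.98), Arhgdia (0.97), Cox5b (0.97), Cox7b (0.97), Pomp (0.97), Atp5b, Polr1d, Elob and Atp5f1 (0.96 each). The sums share libraries, depth and ribosomal share, and the correlation is a description only. Of the members, 12 had 50 CPM in every sum, and their correlations ran from 0.97 for Psma2, which is itself a part of the summed core, to -0.84 for Psme4.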

How the data were processed

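Per the labels and the study's methods, the authors sorted splenic DC, made droplet 3′ libraries and used Cell Ranger 5.0.1 on mm10 to count UMIs. The deposited values are raw UMI counts per gene and cell. The annotation version is not given in the sources used here. Cells were gated by the number of markers with a UMI, with gate numbers set from marker counts after these were seen. No doublet caller was run, and cells past more than 1 gate were left out, except cycling cells with cDC1 markers. Mature cells past the cDC1 gate too, 46 in WT and 9 in cit, were set apart and are in none of the classes described. A larger group of 797 WT and 1234 cit cells (10.2% and 10.7%) passed no gate, was not ribosome-poor and was given no class. Their median cell had 1037 and 3041 UMIs. UMIs were summed per class and library (Python 3.11.15, scipy 1.17.1). Intervals are 95% exact Poisson for CPM, conditional binomial for ratios and Clopper-Pearson for shares. Genes needed 50 UMIs, and 25% more or 20% less counted as higher or lower. The catalytic and inducible genes and, per class, the 3 highest and 3 lowest ratios were named. The interval script was tested on simulated data. The members and lists were chosen with earlier results of these data known. Depth per library stands in the results, and 0 further columns were left unused. Values of some listed genes are not reported here.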

Additional observations from a re-analysis of the deposited data

How the results depend on the processing

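No paired analysis was possible because each genotype had 1 library. With 1 pool of mice per genotype no value has a replicate error, and the cell classes rest on gates whose numbers were chosen after seeing marker counts. In resting cDC2-like cells the core log2 ratio of 0.10 was 0.12 with median scaling, 0.078 as a mean over cells, 0.047 with cells thinned to 1500 UMIs, 0.07 with a ribosomal limit of 12%, 0.13 without ribosomal and mitochondrial genes in the total and 0.013 with equal ribosomal shares. The 19S ratio of 0.09 was 0.11 with classes set by marker z-score, 0.12 without ribosomal and mitochondrial genes, 0.049 with equal ribosomal shares and 0.015 in Ffar2+ cells. The ratio of the inducible genes of 0.14 was 0.091 as a mean over cells, 0.060 thinned, 0.17 without ribosomal and mitochondrial genes, 0.052 with equal ribosomal shares and 0.10 in Ffar2+ cells. The count of members at least 25% higher, 0, became 1 with median scaling, thinning, 1 more marker per gate or no ribosomal and mitochondrial genes, and 2 with z-score classes. The cycling to resting core ratio in WT, 0.24, was 0.17 at a limit of 12%, 0.18 without ribosomal and mitochondrial genes, 0.42 with equal ribosomal shares and 0.34 against Ffar2+ cells. In cDC1-like cells the core ratio of 0.33 became 0.15 and the 19S ratio of 0.34 became 0.25 with equal ribosomal shares, with 8 members higher in place of 20, and the 19S ratio was 0.46 thinned. No share of all genes was computed beside the 8. Alternative values have no interval, thinned ones rest on fewer UMIs, and the cause of these shifts was not tested. None of these ratios changed sign. Among the ratios in other classes, sign changed for the core in mature cells (-0.03, and 0.02 thinned), for the inducible genes in cycling cells (0.10, and -0.05 with equal ribosomal shares) and for the inducible genes in cDC1-like cells (-0.001, and 0.02 with median scaling). Equal ribosomal shares, Ffar2+ cells alone and shared barcodes left out were chosen after seeing the data. So were all alternatives for the difference in Psmb10 share and for values of cit against WT outside resting cDC2-like cells. The remaining alternatives of the cycling to resting core ratio in WT were planned.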
